A study of Homo sapiens with 9 samples.

Results

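The promoters of the proteasome genes were examined in ATAC-seq peak lists of HepG2, a human liver cancer cell line. ATAC-seq uses a transposase that inserts sequencing adapters into open DNA, so a peak marks an interval where insertions were more frequent than in the local background. Members were the protein-coding genes of chromosomes 1 to 22 (GENCODE, GRCh37) whose symbol begins with PSMA, PSMB, PSMC, PSMD, PSME, PSMF or PSMG followed by a number, and 49 of 19229 genes met this rule. A gene was given a promoter peak where a summit, the highest point of a peak, lay within 1 kb of any of its annotated transcript starts. All cells were transfected with siRNA at 50 nM and taken 72 hours later. The siRNA was NTG, a control, or it was directed at INO80, the ATPase that gives a remodeler of nucleosomes its name, in 2 versions called siINO80#1 and siINO80#2. The groups had 3 replicates apiece from separate siRNA treatments, but the authors deposited 1 peak list per group. There was therefore no spread between replicates for any value given here, no test was made, and a difference between lists describes these lists.

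The proteasome degrades proteins that carry a ubiquitin chain. Its barrel, the 20S core, is made of alpha subunits, which form the gated outer rings, and beta subunits, some of which cut the substrate. A 19S cap binds ubiquitin and contains a ring of ATPases that unfolds the substrate and non-ATPase subunits that hold, recognise and deubiquitinate it. In cells that respond to interferon, PSMB8, PSMB9 and PSMB10 replace the cutting subunits and form the immunoproteasome, which favours peptides for antigen presentation. The genes are known to be controlled together by the factor NFE2L1, which binds DNA sites of the antioxidant response type.

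Because the members are known for shared promoter sites, 9 short motifs were searched as exact matches on both strands of the GRCh37 reference, from 250 bp before to 50 bp after the canonical start of each gene. The antioxidant response type, TGACNNNGC, was found in 14 of 49 members (28.6%), against 14.0% of all 19229 protein-coding promoters. The ETS motif, CCGGAAG, stood in 20 members (40.8%), against 14.1% of all promoters. Only 3 members held both, 31 held at least 1 of these motifs and 18 held neither. A TGACNNNGC match can contain the AP-1 motif TGACTCA, but the single AP-1 match among the members, in PSMD9, lay elsewhere in its promoter. A match describes the letters and was not taken as a bound site.

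The TGACNNNGC matches that lay outside annotated exons together with their 10 flanking bases on each side are shown. They were chosen because NFE2L1 is known to bind sites of this type. Whether it binds any of the matches shown was not tested. Each window is written 5′ to 3′ on the strand of the gene from the GRCh37 reference, with the match in capitals. GC followed by NNN and GTCA is the same motif on the other strand.
PSMA7 (chr20:60718507-60718535, minus strand): cgacgccgccTGACGCTGCccgtcgccgc
PSMA7 (chr20:60718551-60718579, minus strand): tggttcggccTGACCCCGCcccggcgcgc
PSMB3 (chr17:36908880-36908908, plus strand): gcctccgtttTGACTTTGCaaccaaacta
PSMB9 (chr6:32821811-32821839, plus strand): gggcggggctGCCTCGTCActtgtctcgg
PSMD12 (chr17:65362840-65362868, minus strand): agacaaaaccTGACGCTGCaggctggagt
PSMD3 (chr17:38137013-38137041, plus strand): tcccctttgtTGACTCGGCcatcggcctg
PSMD9 (chr12:122326584-122326612, plus strand): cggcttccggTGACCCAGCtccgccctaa
PSME1 (chr14:24605307-24605335, plus strand): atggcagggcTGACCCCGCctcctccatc
PSMG1 (chr21:40555542-40555570, minus strand): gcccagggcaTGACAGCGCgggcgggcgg
Among those shown, the match nearest to its NTG summit was that of PSMG1, an assembly chaperone of the core, at 6 bp, and that of PSME1 lay 62 bp from its summit. PSMA7 held 3 such matches, 2 of them shown.

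The ETS matches that lay outside exons with their flanking bases are shown in the same way for the members that had a peak in all 3 lists, because this motif differed most in share between the members and all promoters. The match is again in capitals, and the match of PSMB1, whose flank touches an exon, stands with its promoter stretch further on.
PSMB7 (chr9:127177751-127177777, minus strand): gccagcgacgCCGGAAGtgctcggctc
PSMC6 (chr14:53173801-53173827, plus strand): acggggccaaCCGGAAGgggagggctc
PSMD6 (chr3:64009191-64009217, minus strand): ggagacgggaCCGGAAGccgggccgca
PSMD9 (chr12:122326577-122326603, plus strand): cagggcgcggCTTCCGGtgacccagct
In NTG the distance from these matches to the summit was 15 bp at PSMD9, 31 bp at PSMC6, 39 bp at PSMD6 and 100 bp at PSMB7. The ETS matches were spread over the roles, with 6 of 11 genes for 19S non-ATPase subunits, 3 of 6 ATPase genes and 1 of 7 genes for alpha subunits. Of the 14 members with TGACNNNGC, 3 were among the 4 activators and 3 among the 6 assembly chaperones.

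Other motifs differed less. The GC box GGGCGG was in 35 members (71.4%) against 61.3% of all promoters, and the NF-Y box ATTGG in 21 (42.9%) against 35.7%. YY1 (ATGGCGG) was in 7 members (14.3%) against 7.79%, and TATAAA in 5 (10.2%) against 9.83%. AP-1 (TGACTCA or TGAGTCA) and NRF1 (GCGCATGCG) each had 1 match (2.04%) against 3.54% and 2.71%, and CRE (TGACGTCA) had none against 2.70%. The GC content of the member promoters had a median of 62% against 63.7% for all promoters, with PSMA7 highest at 80.7%. The observed over expected ratio of CpG had a median of 0.817 against 0.778, and PSMB11 was lowest at 0.169. Among promoters with a peak in all 3 lists the order of the CpG medians was reversed. There the ratio was 0.788 for 44 members against 0.853 for 10030 genes, and the GC content was 62% against 65.3%. The ETS motif and TGACNNNGC thus stood apart from all promoters by the widest ratios among motifs found in more than 10 members, as a description of sequence alone.

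**Figure D1:**
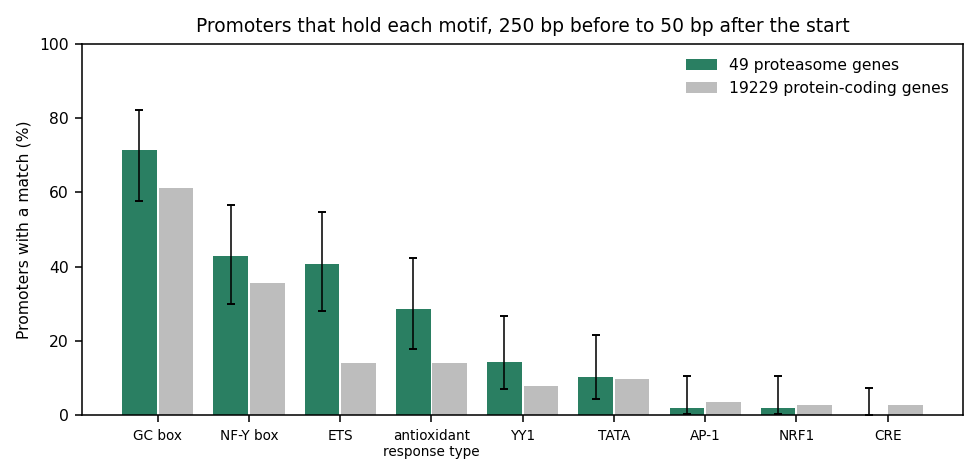
Share of promoters in percent (y axis) that hold each of 9 motifs (x axis), for the 49 proteasome genes (green, with 95% Wilson intervals for counting error) and all 19229 protein-coding genes (grey). ETS (40.8% against 14.1%) and the antioxidant response type (28.6% against 14.0%) show the widest gaps relative to all promoters.

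The 3 lists held 69730 (NTG), 69333 (siINO80#1) and 53113 (siINO80#2) peaks, so siINO80#2 had the shortest list, and the number of sequenced reads is unknown from them. Fold enrichment, the ratio of reads at the summit to the local background, ranks peaks within a list and was not compared as signal between lists. Promoter peaks were found for 8, 8 and 7 of 8 liver marker genes in NTG, siINO80#1 and siINO80#2, with ALB lacking in siINO80#2. Of marker genes of other cell types, CD3E, GFAP, CDH5, COL1A1 and MYOD1 had no promoter peak in any list, and PTPRC had one in siINO80#1. The lists hold no RNA or protein level, so the depletion of INO80 could not be checked here.

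Nearly all proteasome genes had an accessible promoter. A promoter peak was present for 46 of 49 members in NTG (93.9%, 95% Wilson interval 83.5 to 97.9), 47 in siINO80#1 (95.9%, 86.3 to 98.9) and 44 in siINO80#2 (89.8%, 78.2 to 95.6). Over all protein-coding genes the shares were 61.9%, 61.4% and 54.6%. In all 3 lists together, 44 members (89.8%) had a peak, against 52.2% of all genes. The intervals cover counting error only. Of other gene groups that every cell uses, 61 of 80 ribosomal protein genes (76.3%) and 72 of 93 respiratory chain genes (77.4%) had a peak in all 3 lists. These intervals, 65.9 to 84.2 and 67.9 to 84.7, overlap that of the proteasome genes.

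**Figure D2:**
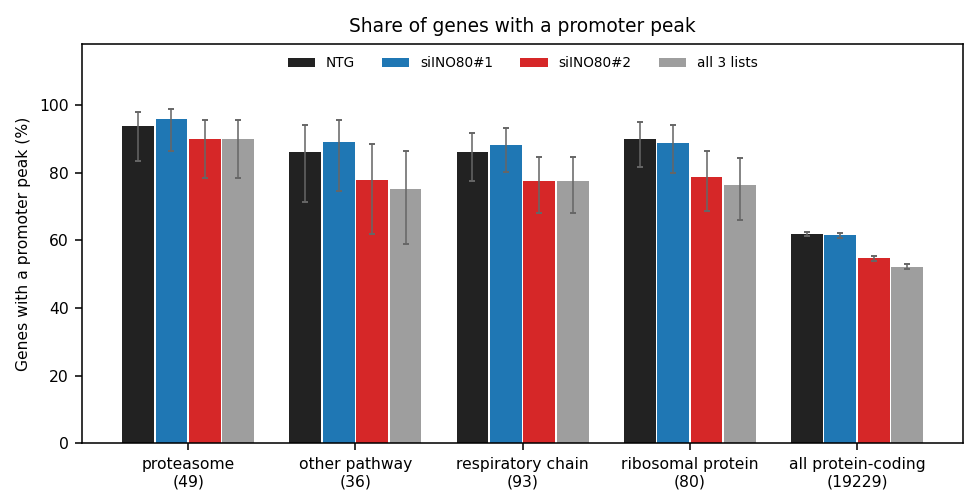
Share of genes with a promoter peak in percent (y axis) in each list and in all 3 lists, for proteasome genes, other genes of the pathway, respiratory chain genes, ribosomal protein genes and all protein-coding genes (x axis, number of genes in brackets), with 95% Wilson intervals for counting error. Proteasome genes stand at 89.8% in all 3 lists and all protein-coding genes at 52.2%.

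All 6 ATPase genes, all 11 genes for 19S non-ATPase subunits, the 4 activators, the inhibitor PSMF1 and the 3 immunoproteasome genes had a peak in every list. The 5 members that lacked a peak somewhere were all core subunits or a core chaperone. PSMA8, the alpha subunit of the proteasome of the testis, and PSMB11, the beta subunit of the proteasome of the thymus cortex, had none in any list. The summit nearest to PSMA8 was at a distance of 42497, 42935 and 42892 bp in NTG, siINO80#1 and siINO80#2. For PSMB11, which neighbours PSMB5, the distances were 7039, 7030 and 7200 bp. These distances place both tissue-restricted genes outside the promoter window by a wide margin.

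The other absences were at genes of the constitutive proteasome. PSMB6, a cutting subunit of the core, had a peak in siINO80#1 alone, with a fold enrichment of 3.36 at percentile 23.8, and its nearest summits in NTG and siINO80#2 lay 6012 and 64595 bp away. PSMA7 had a fold enrichment of 2.33 in NTG and 2.25 in siINO80#1 and no peak in siINO80#2. PSMG3, a core assembly chaperone, had 2.60 and 2.62 and no peak in siINO80#2. The percentile is the rank of a gene's strongest promoter summit among the promoter peaks of all protein-coding genes of the same list, from 0 to 100. PSMA7 was at percentiles 1.88 and 3.01 and PSMG3 at 5.43 and 9.48, so both were among the weakest promoter peaks where they were found, and their absence fell in the shortest list.

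Within a list the members were ranked in the middle of all promoter peaks. The median percentile was 50.1 in NTG, 44.3 in siINO80#1 and 51.2 in siINO80#2, where all genes have 50 by construction. Above percentile 75 stood 8, 12 and 11 members, and below percentile 25 stood 3, 8 and 7. Presence was therefore more frequent than over all genes, while the rank of the peaks was not higher. The ranges were wide, from 1.88 to 98.5 in NTG.

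**Figure D3:**
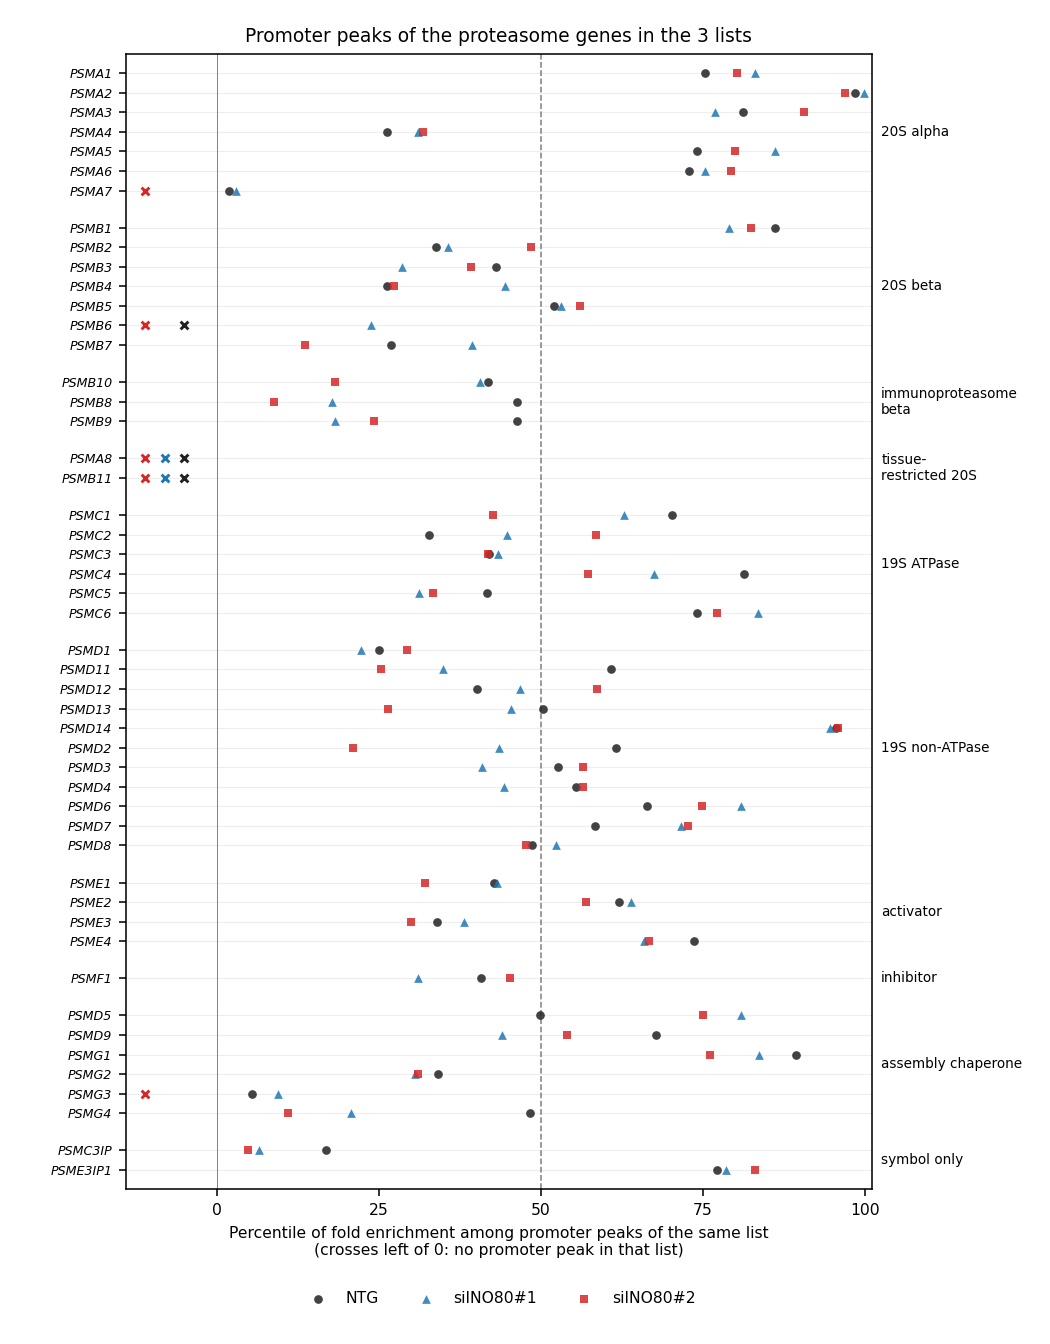
Percentile of fold enrichment among the promoter peaks of the same list (x axis) for each of the 49 members (y axis, grouped by role), in NTG (black circles), siINO80#1 (blue triangles) and siINO80#2 (red squares), with crosses left of 0 where the list had no promoter peak and a dashed line at 50. PSMA2 and PSMD14 stay near the right edge in all 3 lists, and the immunoproteasome genes stand left of their NTG values with both siRNAs.

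Genes for core alpha subunits were ranked highest, with median percentiles of 74.1, 76.9 and 80.2 in NTG, siINO80#1 and siINO80#2 over those with a peak. PSMA1, PSMA2, PSMA3, PSMA5 and PSMA6 were above 70 in every list, PSMA4 was between 26.2 and 31.8, and PSMA7 was near 0. Genes for the constitutive beta subunits had medians of 38.5, 39.3 and 43.8. Among the cutting subunits, PSMB5 was at 52.1, 53.2 and 56.0 and PSMB7 at 26.9, 39.3 and 13.6. The alpha and beta genes, whose products are present in equal number in the core, thus differed in median rank in each list. Their ranges overlapped, from 1.88 to 98.5 for alpha and from 26.3 to 86.0 for beta genes in NTG.

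Among the genes of the caps and regulators, ATPase genes had medians of 56.1, 53.8 and 49.9 and non-ATPase genes 55.4, 45.4 and 56.5. The activators, which open the core without the ATPases or beside them, had 52.4, 53.5 and 44.5. The assembly chaperones had 49.1, 37.3 and 54.0, and PSMF1 was at 40.7, 31.1 and 45.2. These role groups hold 11 genes or fewer, and their ranges overlapped.

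The 3 highest members were PSMA2, PSMD14 and PSMB1, ordered by their lowest percentile over the lists. PSMA2, a core alpha subunit, had fold enrichments of 13.2, 15.6 and 11.1 in NTG, siINO80#1 and siINO80#2 and percentiles of 98.5, 99.8 and 97.0. PSMD14, the deubiquitinase of the cap, had fold enrichments of 11.4, 10.9 and 10.5 and percentiles of 95.5, 94.5 and 95.9. Both were near the top of every list. PSMB1, a core beta subunit, had percentiles of 86.0, 79.0 and 82.4, but its summit lay 932, 932 and 928 bp upstream of its start. The same peak was 130, 130 and 134 bp from the start of TBP, the neighbouring gene for the TATA-binding protein, so the value cannot be assigned to PSMB1 alone.

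Upstream reference sequence of these 3 genes is shown, limited to bases outside annotated exons, to give the DNA next to the most highly ranked starts. Capitals mark matches to the searched motifs on either strand.
PSMA2 (chr7:42971814-42971933, minus strand): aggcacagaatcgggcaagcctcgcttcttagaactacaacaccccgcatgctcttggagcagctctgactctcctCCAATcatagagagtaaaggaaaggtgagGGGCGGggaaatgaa
PSMD14 (chr2:162164901-162164935, plus strand): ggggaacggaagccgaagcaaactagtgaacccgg
PSMB1 (chr6:170862396-170862515, minus strand): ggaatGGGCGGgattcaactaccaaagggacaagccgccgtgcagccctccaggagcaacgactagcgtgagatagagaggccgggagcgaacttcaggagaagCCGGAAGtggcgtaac
In PSMA2 they are an NF-Y box and a GC box, and in PSMB1 a GC box and an ETS motif. The short PSMD14 stretch ends at the base before the start and holds none. The whole promoter window searched for PSMD14 had 1 ETS match, 2 NF-Y boxes and 1 GC box.

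The lowest percentiles among members with a peak in all 3 lists were those of PSMC3IP, PSMB8 and PSMG4. PSMC3IP was at 16.9, 6.51 and 4.76. Its symbol meets the rule, but its product is a partner of meiotic recombination and no proteasome subunit. The other gene of this kind, PSME3IP1, named for binding the activator PSME3, was at 77.1, 78.6 and 83.1. Without both genes, 44, 45 and 42 members had a peak and the median percentiles were again 50.1, 44.3 and 51.2.

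A difference of 20 percentile points or more was taken as moved. The share of all genes past the same size is given beside each count that used all annotated starts. From NTG to siINO80#1, 1 of 46 members was higher and 5 (10.9%) were lower, against 6.52% and 7.37% of all genes. From NTG to siINO80#2, 2 of 44 were higher and 9 (20.5%) lower, against 4.17% and 14.4%. With both siRNAs, 1 member was higher and 4 (9.09%) were lower, against 1.86% and 4.65% of 10030 genes. Between the siRNAs themselves, siINO80#2 had 0 of 44 members higher and 4 lower than siINO80#1, against 2.35% and 11.1%. These members were PSMC1, PSMD2, PSMB7 and PSMB10. The comparisons with NTG share that list. With every list cut to the size of the shortest by fold enrichment, 4 of 44 members were higher and 6 lower with siINO80#2, against 7.75% and 10.8% of all genes. With canonical starts alone, 4, 7 and 3 members were lower and 1, 2 and 1 higher with siINO80#1, siINO80#2 and both. The share of all genes was not computed with canonical starts. At any size, 14 of 44 members were higher with both siRNAs and 17 were lower, against 29.2% and 41.1% of all genes, and the members' shares of 31.8% and 38.6% were close to these. The median difference of the members was −0.27 points with siINO80#1 and −1.19 with siINO80#2, against −0.13 and −3.26 for all genes.

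PSMD5 was the member that was higher with both siRNAs. Its product is a chaperone of cap assembly. Its fold enrichment was 5.33 in NTG, 8.03 in siINO80#1 and 6.57 in siINO80#2, and its percentile 49.8, 80.9 and 75.05. The width of its peak was 442, 604 and 883 bp. Its percentile was lowest in NTG. PSMC2, an ATPase of the cap, passed 20 points with siINO80#2 alone, at 32.7, 44.8 and 58.4.

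The members that were lower with both siRNAs were PSMD11, PSMG4, PSMB8 and PSMB9. PSMD11, a cap subunit that contacts the core, had fold enrichments of 6.19 in NTG, 3.95 in siINO80#1 and 3.26 in siINO80#2, and percentiles of 60.7, 34.9 and 25.3. Its peak was 1141, 615 and 305 bp wide. PSMG4, a core chaperone, had fold enrichments of 5.23, 3.20 and 2.65 and percentiles of 48.3, 20.7 and 11.0. Both genes had their highest percentile in NTG and their lowest in siINO80#2. Sequence upstream of PSMG4, which was lower with both siRNAs, and of PSMD5, which was higher, is shown outside exons with matches in capitals.
PSMG4 (chr6:3259011-3259130, plus strand): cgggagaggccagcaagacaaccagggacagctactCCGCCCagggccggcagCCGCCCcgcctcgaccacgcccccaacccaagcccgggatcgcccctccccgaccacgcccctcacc
PSMD5 (chr9:123605230-123605273, minus strand): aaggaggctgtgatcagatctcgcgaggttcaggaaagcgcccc
In PSMG4 the capitals mark GC boxes, and the shorter PSMD5 stretch holds no searched motif. Outside these stretches, PSMG4 had an ETS match and PSMD5 a TGACNNNGC match, the latter 30 bp from its NTG summit. The windows of both matches overlap an exon, so they are not shown.

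**Figure D4:**
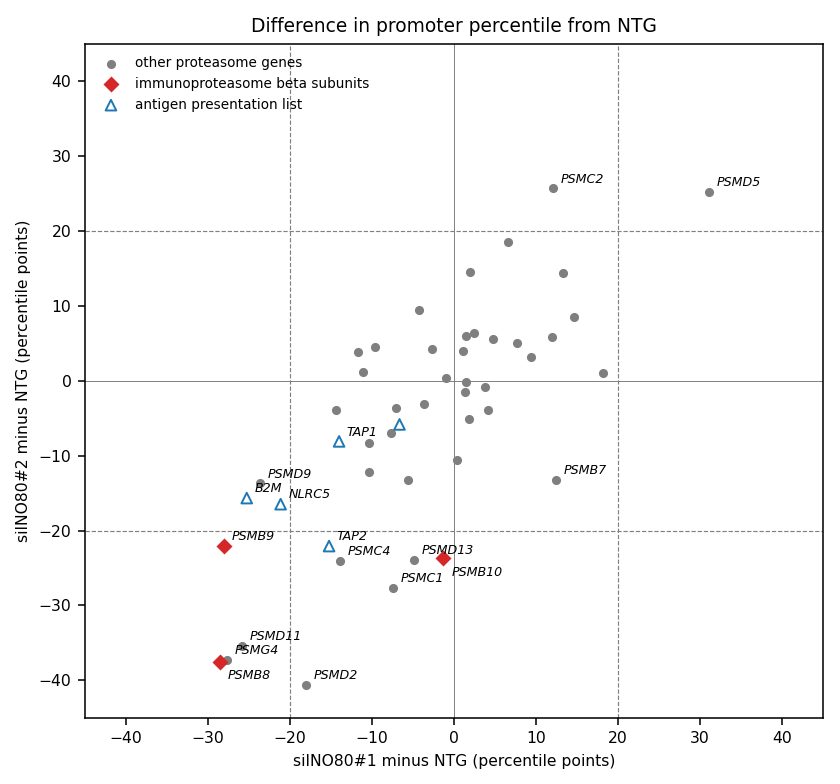
Difference in promoter percentile from NTG for siINO80#1 (x axis) and siINO80#2 (y axis), in percentile points, for the 44 members with a peak in all 3 lists and 5 genes of antigen presentation; dashed lines mark 20 points. PSMD5 lies past both lines at the upper right, PSMD11, PSMG4, PSMB8 and PSMB9 lie past both at the lower left, and the x and y values share the NTG list.

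The 3 immunoproteasome genes were all lower than in NTG with both siRNAs. PSMB8 had fold enrichments of 5.12 in NTG, 3.05 in siINO80#1 and 2.54 in siINO80#2 and percentiles of 46.3, 17.8 and 8.80. PSMB10 was at percentiles 41.9, 40.6 and 18.2, so that its difference from NTG was −1.31 points with siINO80#1. PSMB9 was at 46.3, 18.3 and 24.3. These 3 genes do not give 3 independent values, however. In NTG the strongest summit assigned to PSMB9 was that of PSMB8, in 1 peak at chr6:32812043-32812613 that lies near starts of both genes. At its canonical start PSMB9 had fold enrichments of 4.21, 3.08 and 3.21 and percentiles of 32.3, 18.3 and 24.3. The differences were then under 20 points, and PSMB9 was no longer among the members that moved. The NTG summit of PSMB8 itself lay 643 bp from the canonical start of that gene.

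PSMB10 also depended on the choice of start. Its summits lay 1051, 1082 and 1022 bp from the canonical start and near another annotated start, so with canonical starts alone it had no promoter peak. PSME3, which codes for a nuclear activator, had its strongest summit 9144 bp from its canonical start in NTG. At the canonical start it had percentiles of 9.04 in NTG and 28.2 in siINO80#1 and no peak in siINO80#2.

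Other antigen presentation genes were read beside the immunoproteasome. PSMB9 and TAP1, which carries peptides into the endoplasmic reticulum, start 488 bp apart on opposite strands and share 1 peak, so TAP1 had the canonical values of PSMB9. TAP2, its partner, was at percentiles 58.4, 43.1 and 36.3. B2M, the light chain of the presenting molecule, was at 93.9, 68.7 and 78.3. NLRC5, an activator of these genes, was at 21.8, 0.622 and 5.31, and IRF1, a factor of the interferon response, at 61.0, 54.3 and 55.2. All 5 of the 6 listed genes that had peaks were lower with both siRNAs at any size, and TAPBP had no peak in any list. With 1 list per group, the count stands beside the 41.1% of all genes that were lower with both. Of the 7 liver markers with a peak in all 3 lists, 4 were lower with both siRNAs and 1 was higher: SERPINA1 was at 65.5, 49.9 and 32.8 and TTR at 27.7, 43.5 and 60.0. Their part in the result was not tested.

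Members that were lower with siINO80#2 alone by the 20-point rule were PSMC1, PSMC4, PSMD2, PSMD13 and PSMB10. PSMD2, a scaffold of the cap, had the widest difference, at percentiles 61.6, 43.6 and 21.1. PSMC1 and PSMC4, ATPases of the cap, were at 70.2, 62.8 and 42.5 and at 81.4, 67.4 and 57.3. PSMD13 was at 50.3, 45.4 and 26.4. All were lower with siINO80#1 too, by less than 20 points. PSMD9, a cap chaperone, was lower by 20 points with siINO80#1 alone, at 67.7, 44.01 and 54.0.

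The summits lay just upstream of the starts. The median offset from the nearest transcript start was −67, −45 and −61.5 bp in NTG, siINO80#1 and siINO80#2, against −44, −43 and −46 bp over all genes, where negative is upstream. Between 250 bp upstream and 50 bp downstream lay 43 of 46 summits in NTG (93.5%), 43 of 47 in siINO80#1 (91.5%) and 42 of 44 in siINO80#2 (95.5%). Over all protein-coding genes the shares were 68.0%, 72.6% and 71.2%. Upstream summits were 42 in NTG (91.3%), 35 in siINO80#1 (74.5%) and 35 in siINO80#2 (79.5%), against 67.2%, 69.1% and 68.8%. Ribosomal protein genes had 81.9%, 84.5% and 85.7% of their summits between 250 bp upstream and 50 bp downstream, and respiratory chain genes 80%, 82.9% and 87.5%, so these sets too were above all genes. The median peak width of the proteasome genes was 832.5, 755 and 766 bp, against 739, 761 and 680 bp over all genes.

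**Figure D5:**
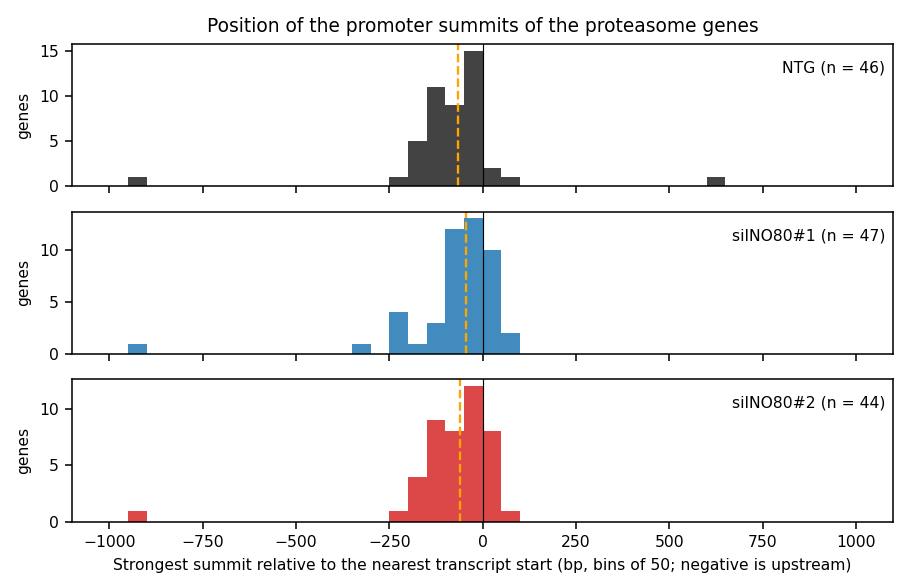
Number of members (y axis) by the position of their strongest promoter summit relative to the nearest transcript start, in bins of 50 bp (x axis, negative is upstream), in NTG, siINO80#1 and siINO80#2, with the median dashed and the start as a solid line. Most summits lie just upstream of the start, and the one at −932 bp is that of PSMB1.

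Summit positions were compared between lists. The distance between the summits of 1 gene had a median of 35.5 bp between NTG and siINO80#1, 33 bp between NTG and siINO80#2 and 39.5 bp between the siRNAs, against 44, 46 and 41 bp over all genes. It was at most 50 bp for 29 of 46, 31 of 44 and 29 of 44 members (63.0%, 70.5% and 65.9%), against 54.0%, 52.3% and 55.8%. At PSMB1 it was 0 and 4 bp from NTG, and at PSMA2 4 and 4 bp. The distance from NTG was over 200 bp for 5 of 46 members with siINO80#1 and for 4 of 44 with siINO80#2. Over all genes the distance was over 200 bp for 2014 of 11120 and 1841 of 10181. At PSMB9 it was 9368 and 9360 bp, since its NTG summit was that of the PSMB8 peak. It was 664 and 709 bp at PSMD12, 468 and 489 bp at PSMA4 and 328 and 299 bp at PSMC5, an ATPase gene. PSMG2, a core chaperone, passed 200 bp with siINO80#1 alone, at 349 bp.

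Peaks at the promoters were compared with those farther out. Regions within 1 kb of a member start numbered 56 in NTG, 53 in siINO80#1 and 49 in siINO80#2, and 47 (83.9%), 46 (86.8%) and 48 (98.0%) of them overlapped a peak of both other lists. Over the promoter peaks of all protein-coding genes the shares were 71.5%, 72.3% and 87.3%. Between 1 and 10 kb there were 50, 38 and 27 peaks, of which 14 (28.0%), 14 (36.8%) and 15 (55.6%) did. The same share was not computed for such peaks around all genes, so whether the contrast of the zones is particular to the members is unknown. In both zones the share was higher the shorter the list.

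Several members share their promoter region with a neighbour. A protein-coding gene on the opposite strand started within 1 kb of the canonical start of 9 members (18.4%), against 10.1% of all protein-coding genes. Besides PSMB9 with TAP1, the pairs were PSMA2 with MRPL32 (202 bp), PSME4 with ACYP2 (120 bp), PSMC5 with FTSJ3 (232 bp), PSME3IP1 with RSPRY1 (290 bp), PSMG2 with CEP76 (319 bp), PSMA7 with SS18L1 (375 bp), PSMD13 with SIRT3 (634 bp) and PSME2 with RNF31 (888 bp). A peak in such a region cannot be assigned to 1 of the genes. Of the 9 members with such a partner, 8 had a peak in all 3 lists (88.9%), and of the 40 without, 36 (90%). Over all genes the shares were 83.3% with a partner and 48.7% without. The exception among the 9 was PSMA7. The pair PSME4 and ACYP2 was at percentiles 73.7, 66.0 and 66.6 and PSMG2 with CEP76 at 34.1, 30.5 and 31.1 by the values of the proteasome gene. PSMC5 with FTSJ3 was at 41.6, 31.2 and 33.4 by the values of PSMC5. PSME2, which forms a ring activator with PSME1, was at 61.97, 63.8 and 56.9.

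The wider pathway had 36 genes on the list used here outside the symbol rule. A promoter peak was found for 31 in NTG, 32 in siINO80#1 and 28 in siINO80#2, and for 27 in all 3 lists (75%), against the 52.2% of all genes. The remaining subunits and chaperones all had peaks: SEM1, a small cap subunit, at percentiles 86.4, 90.9 and 87.5, POMP, the core maturation factor, at 64.3, 83.4 and 76.4, and ADRM1, a ubiquitin receptor, at 26.0, 20.1 and 15.1. PAAF1, a cap chaperone, was lower in order, at 86.9, 74.5 and 55.6, and AKIRIN2, which brings proteasomes into the nucleus, was at 58.7, 70.6 and 73.9.

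Of the deubiquitinases that bind the cap, UCHL5 was among the most highly ranked promoters at 97.2, 97.7 and 98.6, and USP14 was at 56.0, 61.5 and 68.7. Factors that control the genes differed in rank. NFE2L1, the known regulator of the proteasome genes, was at 52.6, 46.8 and 40.8, and NFE2L2, its relative in the oxidative stress response, at 83.9, 63.9 and 63.9. NGLY1, the enzyme that NFE2L1 needs to become active, was at 90.9, 89.9 and 95.8, and DDI2, the protease that cuts it, at 28.9, 41.3 and 18.8. Their small MAF partners were patchy: MAFF and MAFG had a peak in siINO80#1 alone and MAFK in NTG alone. Of the ubiquitin genes, RPS27A was at 76.0, 95.5 and 84.6.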

How the data were processed

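ATAC-seq was made in 9 HepG2 samples, grouped by their titles. The deposited values are 1 filtered narrowPeak list per group, so the replicates had been pooled or called together. In these lists the authors give each summit a fold enrichment, which is a ratio, and p and q values as −log10. The submitters' processing notes name Trim Galore 0.4.1, Bowtie2, SAMtools, MACS2, deepTools 2.2.4 and hg19. The filter and the handling of the transposase offset are not given in the sources used here.

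Starts were taken from GENCODE 44 lifted to GRCh37, on which 0 peaks ended beyond a chromosome. Among summits within 1 kb, the one of highest fold enrichment stood for the gene. The percentile was the mid-rank among all protein-coding promoter peaks of the list. Assignment was tested on simulated data, where 400 of 400 near peaks were recovered and 0 of 200 far ones assigned. The members, lists, rules and alternatives were chosen with earlier results of these data known. Some genes were named with their percentile in every list where they had a peak. These were the genes without a peak in a list, those past 20 points with both siRNAs, and the 3 highest and 3 lowest. Genes with a partner start and the immunoproteasome and tissue-restricted genes were treated in the same way. Others named with values are members or listed genes that the text compares. Reads per sample are unknown, so no precision from depth was computed. Scripts ran in Python 3.11.15 with pandas 2.3.3, numpy 2.4.6, matplotlib 3.10.9 and scipy 1.17.1. Values of some listed genes that are no members are not reported here.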

Additional observations from a re-analysis of the deposited data

Results flagged for a closer look

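The number of members with a promoter peak differed from NTG by 1 with siINO80#1 and by −2 with siINO80#2, so the siRNAs went in opposite directions, and the difference was not tested. The gene gained was PSMB6, and those absent from siINO80#2 were PSMA7 and PSMG3.

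PSMB7, a cutting subunit of the core, moved in opposite directions with the siRNAs, by 12.4 percentile points from NTG with siINO80#1 and by −13.3 with siINO80#2. It was the 1 member past 10 points both ways, of 13 with opposite signs among 44, and the difference was not tested.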

How the results depend on the processing

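No paired analysis was possible because each group had 1 list, and leaving out a replicate was not run for the same reason. Over 14 alternative settings, 132 of 153 recomputed values stayed within 1.5 times the count or within the interval of the share or median, among them every count of genes with a promoter peak. With a −log10 q of at least 5 the median percentile was 41.0 in NTG and 33.8 in siINO80#1, 2 members were higher with siINO80#1, and 2, PSMB9 and PSMD2, were lower with both siRNAs. PSMD11, PSMG4 and PSMB8 dropped out there because their siINO80#2 peaks were below that q. At equal list size the median in siINO80#1 was 39.1 and 4 members were higher and 6 lower with siINO80#2, in place of 2 and 9. Within 2.5 kb, 2 members were higher with siINO80#1 and 2 with both. Among all peaks of a list the medians were 79.5, 74.8 and 76.97, since promoter peaks rank high there. At a threshold of 10 points, 12 members were lower and 7 higher with siINO80#1, 14 and 5 with siINO80#2, and 8 and 3 with both. The share of all genes was not computed at 10 points, with the q limit or within 2.5 kb. The counts of members in these settings therefore cannot be set against all genes. In a window of 200 bp around the NTG summit, AP-1 and NRF1 were in 0% of members, against 3.25% and 1.72% of all genes with an NTG peak. YY1 was in 6.52% against 5.77% and TATA in 2.17% against 2.37%. The NF-Y box was in 30.4% against 30.6%, so its difference was absent there. The ETS motif was in 34.8% of members against 14.3% of all, and TGACNNNGC in 21.7% against 11.6%. Canonical starts only, and leaving out PSMC3IP with PSME3IP1, were chosen after seeing the data. PSMD5 was higher with both siRNAs in each setting that was run for that count.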

Other observations

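PSMD10, a cap chaperone on chromosome X and so outside the rule, had a promoter peak in all 3 lists, with fold enrichments of 11.1 in NTG, 13.2 in siINO80#1 and 7.58 in siINO80#2. Ranked among the promoter peaks of chromosomes 1 to 22, these stood at percentiles 94.5, 98.6 and 83.4. Processed pseudogenes of the same symbols, which are reverse-transcribed copies without the parental promoter, seldom had a peak: 3 of 39 in NTG (7.69%), 2 in siINO80#1 (5.13%) and 3 in siINO80#2 (7.69%). PSMD10P2 and PSME2P3 had one in every list.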
